A study of Mus musculus with 10 samples.

Results

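The data concern 10 marker genes of the liver sinusoidal endothelium, the cells that line the hepatic capillaries, in liver RNA of mice that carry a human APOE gene. The members were the genes Stab1, Stab2, Fcgr2b, Lyve1, Clec4g, Oit3, Kdr, Tek, Cdh5 and Pecam1, and every probe set whose platform annotation gives 1 of these symbols and no other was taken, whatever its level. That gave 17 probe sets of the 45101 on the array. All 10 genes were found by name, among 18194 genes named by a single symbol. A probe set is a group of short oligonucleotides whose signals are combined into 1 value.

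Of 10 female mice, 5 carried human APOE4 (Apoetm3(APOE*4)Mae) on both alleles in place of mouse Apoe, and 5 carried human APOE3 (Apoetm2(APOE*3)Mae) in the same way. The human isoforms were driven by the mouse Apoe promoter in both genotypes, so that no animal had mouse apolipoprotein E. All mice were on a C57BL/6 background, 3 months old, and were kept on a high-fat diet, with 41% of energy as milk fat and cholesterol at 2 g/kg. The design text gives the time on this diet as 6 weeks and the growth protocol as 2 months. Each liver gave 1 extract and 1 array, and the animals are called APOE4 livers 1 to 5 and APOE3 livers 1 to 5 by the replicate numbers of their titles.

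Sinusoidal endothelial cells have open pores without a basement membrane behind them, through which lipoproteins pass from blood to hepatocytes. Apolipoprotein E is a ligand by which hepatocytes take up lipoprotein remnants after that passage. The same endothelium clears waste molecules from blood through scavenger and Fc receptors, and it depends on vascular growth factor signals for its upkeep. The question the comparison addresses is whether these markers differ in level between livers with the APOE4 and the APOE3 isoform.

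The values are log2 expression from GCRMA, in which transcripts that are not detected lie near a low floor. Probe sets with a mean of at least 4 over all 10 arrays were tested, 14732 in all and 13 of the 17 member probe sets. Each of the 10 genes had 1 probe set or more at or above 4 on all 10 arrays. Array medians over all probe sets lay between 2.62 and 2.64 in APOE4 livers and between 2.64 and 2.67 in APOE3 livers. Over the tested probe sets, the median correlation of an array with the others was 0.976 to 0.985. The remaining 4 member probe sets were low. The second probe set of Lyve1 read 2.90 to 3.91 in APOE4 and 2.67 to 3.18 in APOE3 livers. That of Clec4g read 1.72 to 1.96 and 1.79 to 2.06, that of Cdh5 1.77 to 2.26 and 1.67 to 2.37, and the fifth of Fcgr2b 1.00 to 1.10 and 0.73 to 1.27, each in APOE4 and then in APOE3 livers. At these levels they were not tested.

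None of the 13 tested member probe sets passed an adjusted p of 0.05 in limma, and the 0 calls stand beside a background of 0.0815% (12 of 14732 probe sets). At an unadjusted p under 0.05, 1 member probe set was found, that of Cdh5, where 8.00% of all tested probe sets were and 2.46% with a lower level in APOE4. In 0 of the 13 did the 5 APOE4 and the 5 APOE3 values stay apart without overlap, which held for 2.02% of all tested probe sets. Where each gene was represented by its brightest probe set, 6 genes had a difference above 0, beside 60.9% of all tested probe sets, and 4 below. The median log2 difference of the 10 genes was 0.08, against 0.05 over all tested probe sets. With each array centred on the median of its tested probe sets, these medians were 0.02 and -0.0099. Without APOE4 liver 4 the median of the 10 genes was -0.0043. As bulk RNA was measured, fewer cells of a type and less RNA per cell cannot be told apart in any of these values.

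**Figure D1:**
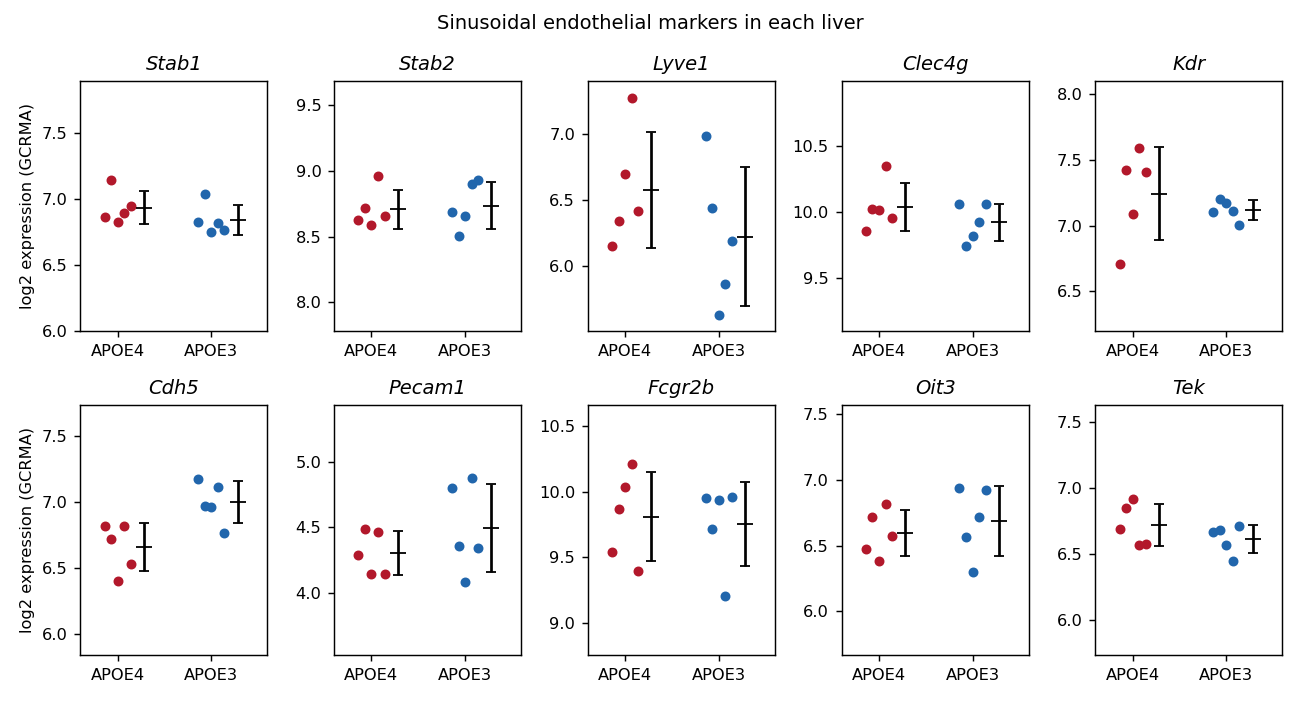
Level of each of the 10 markers (log2 expression, vertical axes of equal span) in the 5 APOE4 livers (red, left) and the 5 APOE3 livers (blue, right), by its brightest probe set; bars give mean and SD. The groups overlap in every panel, and the Cdh5 panel has 3 APOE4 livers below the lowest APOE3 liver.

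The scavenger receptors come first. Stab1 and Stab2 encode stabilin-1 and stabilin-2, related receptors that take up modified lipoproteins, hyaluronan and other waste from blood, and Stab1 is also made by macrophages. Stab1 (1450199_a_at) was at 6.87, 7.14, 6.83, 6.89 and 6.94 log2 in APOE4 livers 1 to 5, against 6.82, 7.04, 6.75, 6.82 and 6.77 in APOE3 livers 1 to 5. In APOE3 livers, liver 2 stood above the other 4, and the genotypes overlapped only through it: without APOE3 liver 2 the lowest APOE4 value lay above the highest APOE3 value, by a gap of 0.0019 log2. Without that animal, 2.96% of all tested probe sets had groups that do not overlap. The log2 difference was 0.10 (SE 0.095, 95% interval -0.11 to 0.30, adjusted p = 0.819 in limma), and 0.14 without that animal (adjusted p = 0.797 in limma). It was 0.04 without APOE4 liver 2. With arrays centred on the medians of their tested probe sets it was 0.04.

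Stab2 (1419423_at) was at 8.63, 8.72, 8.59, 8.96 and 8.66 in APOE4 livers, against 8.69, 8.51, 8.66, 8.90 and 8.93 in APOE3 livers. The highest values were those of APOE4 liver 4 and of APOE3 livers 4 and 5, so each genotype held high and low animals. The difference was -0.03 (SE 0.11, 95% interval -0.27 to 0.22, adjusted p = 0.964 in limma). It was above 0 without APOE4 liver 3 (0.0039), APOE3 liver 4 (0.0137) or APOE3 liver 5 (0.0211), and farther below 0 without APOE4 liver 4 (-0.0892) or APOE3 liver 2 (-0.0845). As a fold this interval runs from 0.828 to 1.16, so a change of Stab2 beyond these sizes lies outside what the 10 arrays allow at that confidence.

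Fcgr2b encodes the inhibitory Fc gamma receptor, which in liver is carried mainly by the sinusoidal endothelium and clears immune complexes, and which B cells and macrophages also make. By its highest probe set (1435477_s_at) it was at 9.54, 9.86, 10.03, 10.21 and 9.40 in APOE4 livers, against 9.95, 9.71, 9.94, 9.21 and 9.96 in APOE3 livers. APOE3 liver 4 was the lowest of all 10 and APOE4 liver 5 the next. The difference was 0.06 (SE 0.19, 95% interval -0.36 to 0.47, adjusted p = 0.956 in limma), -0.08 without APOE3 liver 4, 0.16 without APOE4 liver 5 and -0.0016 with arrays centred, so it has no settled sign. The other 3 tested probe sets of the gene, which read the same transcripts and are no separate evidence, differed by 0.01, 0.02 and -0.03. Deviations from the genotype means correlated between the 4 probe sets at 0.452 to 0.882 over the 10 arrays. In APOE3 liver 4 the mean of 18 Kupffer cell and macrophage markers was 9.58, the highest of all arrays, against 7.89 to 8.79 in APOE4 livers and 8.07 to 8.63 in the other APOE3 livers. All 18 of these markers were tested, and their part in the Fcgr2b values was not tested.

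Lyve1 and Clec4g bind sugars at the surface of these cells. Lyve1 encodes a hyaluronan receptor of lymphatic and sinusoidal endothelium, and Clec4g the C-type lectin LSECtin. Lyve1 (1429379_at) was at 6.15, 6.34, 6.69, 7.28 and 6.41 in APOE4 livers, against 6.99, 6.44, 5.63, 5.86 and 6.19 in APOE3 livers. It was the most variable member between animals of a genotype, with a pooled SD of 0.485, more than that of 91.1% of tested probe sets. APOE4 liver 4 and APOE3 liver 1 were the highest of their groups and of all 10. The difference was 0.35 (SE 0.27, 95% interval -0.24 to 0.95, adjusted p = 0.755 in limma). Single animals moved it by more than 1.5 times: it was 0.18 without APOE4 liver 4 and 0.55 without APOE3 liver 1 (adjusted p = 0.892 and 0.428 in limma), and 0.21 without APOE3 liver 3. The interval reaches a 1.93-fold higher level in APOE4, the widest allowance of any member.

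Clec4g (1427428_at) was at 9.86, 10.02, 10.01, 10.35 and 9.95 in APOE4 livers, against 10.06, 9.74, 9.82, 9.93 and 10.06 in APOE3 livers. APOE4 liver 4 was again the highest of its group, and the remaining 4 APOE4 values lay within the APOE3 range. The difference was 0.12 (SE 0.11, 95% interval -0.13 to 0.36, adjusted p = 0.810 in limma), 0.04 without APOE4 liver 4 and 0.07 without APOE3 liver 2. Oit3 encodes a secreted protein with a zona pellucida domain that is made in liver. It was at 6.48, 6.71, 6.39, 6.82 and 6.57 in APOE4 livers, against 6.94, 6.56, 6.30, 6.72 and 6.92 in APOE3 livers (1425125_at). All 5 APOE4 values fell inside the APOE3 range, and the difference was -0.09 (SE 0.14, 95% interval -0.40 to 0.21, adjusted p = 0.884 in limma). It was nearer to 0 without APOE3 liver 1 (-0.03), APOE3 liver 5 (-0.04) or APOE4 liver 3 (-0.04), and farther from 0 without APOE3 liver 3 (-0.19) or APOE4 liver 4 (-0.15).

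Kdr and Tek are receptor tyrosine kinases of endothelium in general, for vascular endothelial growth factor and for the angiopoietins. Kdr (1449379_at) was at 6.71, 7.42, 7.08, 7.59 and 7.41 in APOE4 livers, against 7.11, 7.20, 7.17, 7.11 and 7.01 in APOE3 livers. The spread differed more than the mean: 3 APOE4 livers lay above all APOE3 livers and 1, liver 1, below them, with an SD of 0.351 in APOE4 and 0.0759 in APOE3 livers (n = 5 each). No test of that difference in spread was made. The difference in level was 0.12 (SE 0.15, 95% interval -0.21 to 0.46, adjusted p = 0.862 in limma), 0.26 without APOE4 liver 1, 0.04 without APOE4 liver 4 and 0.08 without APOE4 liver 2 or 5.

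Tek (1418788_at) was at 6.69, 6.85, 6.92, 6.57 and 6.57 in APOE4 livers, against 6.67, 6.68, 6.57, 6.45 and 6.71 in APOE3 livers. APOE4 livers 2 and 3 exceeded every APOE3 liver and the other 3 lay among them. The difference was 0.11 (SE 0.10, 95% interval -0.12 to 0.33, adjusted p = 0.808 in limma), and 0.06 without APOE4 liver 3 or APOE3 liver 4. Their ligands were singled out after the values were seen. Vegfa, the main ligand of Kdr, was at 6.76 in APOE4 and 6.79 in APOE3 livers, while the angiopoietin genes Angpt1 and Angpt2 had means of 2.22 and 3.37 in APOE4 livers, against 2.28 and 3.42 in APOE3 livers, and were not tested.

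Cdh5 and Pecam1 encode VE-cadherin and CD31, adhesion proteins of the contacts between endothelial cells, of which CD31 is also found on leukocytes and platelets. Cdh5 (1433956_at) was at 6.82, 6.72, 6.40, 6.82 and 6.53 in APOE4 livers, against 7.18, 6.97, 6.96, 7.12 and 6.76 in APOE3 livers. In APOE4, the values of livers 2, 3 and 5 lay below the whole APOE3 range, and livers 1 and 4 overlapped with APOE3 liver 5 alone. The means were 6.66 ± 0.18 in APOE4 and 7.00 ± 0.16 in APOE3 livers (SD, n = 5 each). The difference of -0.34 (SE 0.12, 95% interval -0.60 to -0.09), a 0.789-fold level, did not pass (unadjusted p = 0.0133, adjusted p = 0.565 in limma). A smaller unadjusted p was reached by 343 of the 14732 tested probe sets. Over the 18 alternative settings, animals left out in turn included, the difference stayed between -0.40 and -0.28 and the adjusted p between 0.408 and 0.782 in limma. Without APOE3 liver 5 the groups no longer overlapped (-0.40, adjusted p = 0.547 in limma), as was then so for 3.21% of all tested probe sets.

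Pecam1 was low, at 4.29, 4.49, 4.15, 4.46 and 4.14 in APOE4 livers, against 4.80, 4.36, 4.09, 4.88 and 4.34 in APOE3 livers (1421287_a_at). APOE3 livers 1 and 4 were above all others, and the 5 APOE4 values lay inside the APOE3 range. The difference was -0.19 (SE 0.16, 95% interval -0.53 to 0.16, adjusted p = 0.780 in limma). It was -0.09 without APOE3 liver 4, -0.11 without APOE3 liver 1 and -0.29 without APOE3 liver 3. So near the floor of GCRMA a log2 difference has no sure scale.

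**Figure D2:**
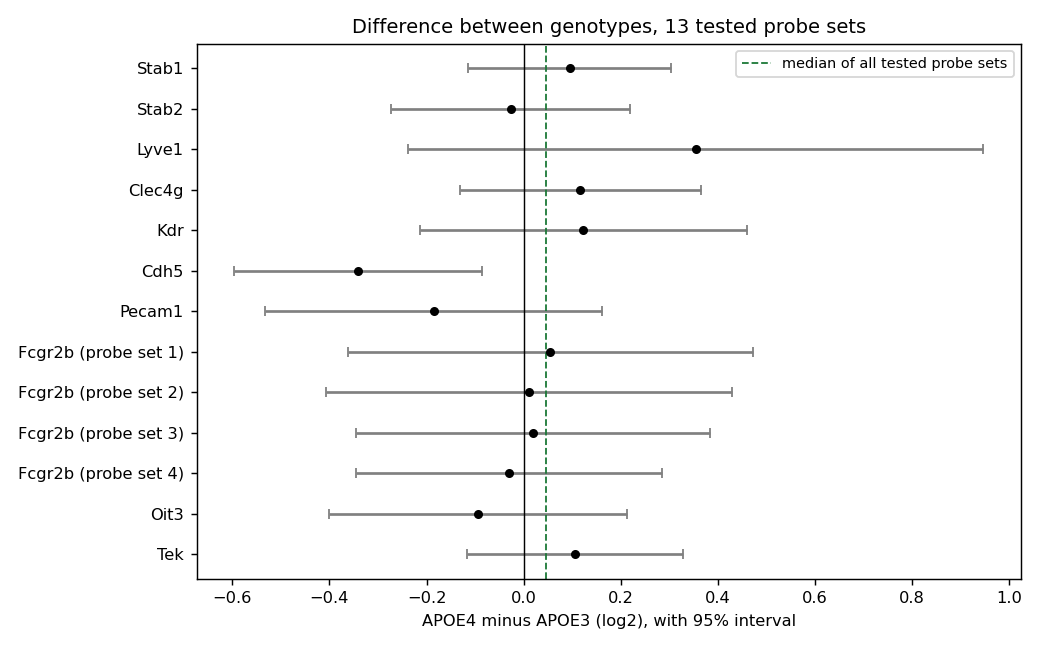
Difference in level, APOE4 minus APOE3 (log2, horizontal axis), of the 13 tested probe sets, with limma's 95% intervals before any adjustment; the dashed line is the median of all 14732 tested probe sets. Each interval but that of Cdh5 (-0.60 to -0.09) includes 0, and that of Lyve1 is the widest.

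Of the 13 intervals, 10 lay wholly between -0.5 and 0.5 log2, and 4 of these were of the single gene Fcgr2b. Those of Lyve1, Cdh5 and Pecam1 did not. Over the 13 probe sets, which count Fcgr2b 4 times, the median pooled SD was 0.234, against 0.231 over all tested probe sets. By the brightest probe set of each gene, the pooled SD ran from 0.120 (Stab1) to 0.485 (Lyve1). The middle values in that order were 0.172 (Cdh5) and 0.225 (Oit3).

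Animals of one genotype differed from each other in several members at once. Each value was set against the mean of its genotype, which leaves the genotypes out, and the deviations of the 10 genes were compared over the 10 arrays. Of the 45 pairs of genes, 34 (75.6%) had a correlation above 0, where 50.3% of all pairs of tested probe sets had. The median Pearson r was 0.204 for the member pairs and 0.0033 for all pairs, and an r over 0.5 was found in 20.0% of member pairs and 11.3% of all pairs. These are descriptions over 10 arrays, in which all genes share the labelled RNA and the normalization, and the pairs share genes.

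Over all 10 arrays the closest pair was Stab2 with Clec4g (r = 0.794, Spearman's rho = 0.867), which was 0.505 without the 2 arrays farthest from the median of Stab2. In each pair the 2 arrays left out were those farthest from the median of the gene named first. They can differ between pairs, so these values are not ranked. Clec4g with Oit3 had r = 0.760 (rho = 0.794, and 0.672 without 2 arrays). Cdh5 with Pecam1 had r = 0.686 (rho = 0.746, and 0.738 without 2 arrays). The r of 0.671 between Lyve1 and Clec4g (rho = 0.515) fell to 0.128 without 2 arrays and rests on those. At the other end, Cdh5 with Tek had r = -0.448 (rho = -0.418), and it was 0.0725 without 2 arrays. Stab1 and Stab2, although related, had r = -0.292 (rho = 0.0667), which turned to 0.227 without 2 arrays, and Stab1 with Clec4g had r = -0.256, which turned to 0.188.

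The promoters of Stab2 and Clec4g are shown because these were the closest pair over all 10 arrays, though their r was lower without 2 arrays. That of Stab1 is shown because it encodes the relative of stabilin-2. RefSeq promoters of build GRCm38.p6, 250 bases before to 50 after the start of the gene, were at hand for 6 of the 10 genes, those of Stab1, Stab2, Clec4g, Kdr, Fcgr2b and Tek. The window of Stab2 lies at chr10:87007893-87008192, that of Clec4g at chr8:3720602-3720901 and that of Stab1 at chr14:31168592-31168891, all on the minus strand and printed 5′ to 3′ along the gene. Capitals mark matches on either strand to 1 of 3 runs of letters. For ETS factors, which many endothelial genes are known to need, the run AGGAAG was searched. For GATA factors this was the run AGATAA, and for a TATA box the run TATAAA.
Stab2: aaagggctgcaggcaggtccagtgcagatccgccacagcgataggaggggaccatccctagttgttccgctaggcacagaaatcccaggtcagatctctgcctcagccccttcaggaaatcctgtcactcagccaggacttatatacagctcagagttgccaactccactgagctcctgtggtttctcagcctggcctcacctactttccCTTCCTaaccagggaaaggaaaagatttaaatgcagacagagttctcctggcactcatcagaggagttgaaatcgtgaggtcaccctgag
Clec4g: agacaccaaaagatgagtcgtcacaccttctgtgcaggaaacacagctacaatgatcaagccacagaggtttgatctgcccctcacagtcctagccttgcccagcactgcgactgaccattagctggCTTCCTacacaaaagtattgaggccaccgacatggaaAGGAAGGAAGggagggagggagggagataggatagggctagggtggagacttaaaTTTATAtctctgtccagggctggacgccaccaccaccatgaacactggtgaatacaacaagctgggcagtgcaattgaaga
Stab1: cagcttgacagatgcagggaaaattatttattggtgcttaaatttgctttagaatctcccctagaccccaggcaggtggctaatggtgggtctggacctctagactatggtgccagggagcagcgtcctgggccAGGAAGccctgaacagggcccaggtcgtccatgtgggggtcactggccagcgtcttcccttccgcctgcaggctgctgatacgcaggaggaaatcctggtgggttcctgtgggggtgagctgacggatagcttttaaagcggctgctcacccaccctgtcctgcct
The ETS letters were found once in the Stab2 window, on the other strand 40 bases before the start, and once in that of Stab1, 116 bases before it. The Clec4g window held them 3 times, of which 2 overlap each other, and a TATA match on the other strand 31 bases before the start. By gene, 3 of the 6 windows held the ETS letters, against 35.4% of 32851 promoters of the same length. The GATA letters were in 1 of 6, that of Tek, against 11.2%, and the TATA letters in 1 of 6, that of Clec4g, against 13.6%. A match describes the letters and shows no binding.

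**Figure D3:**
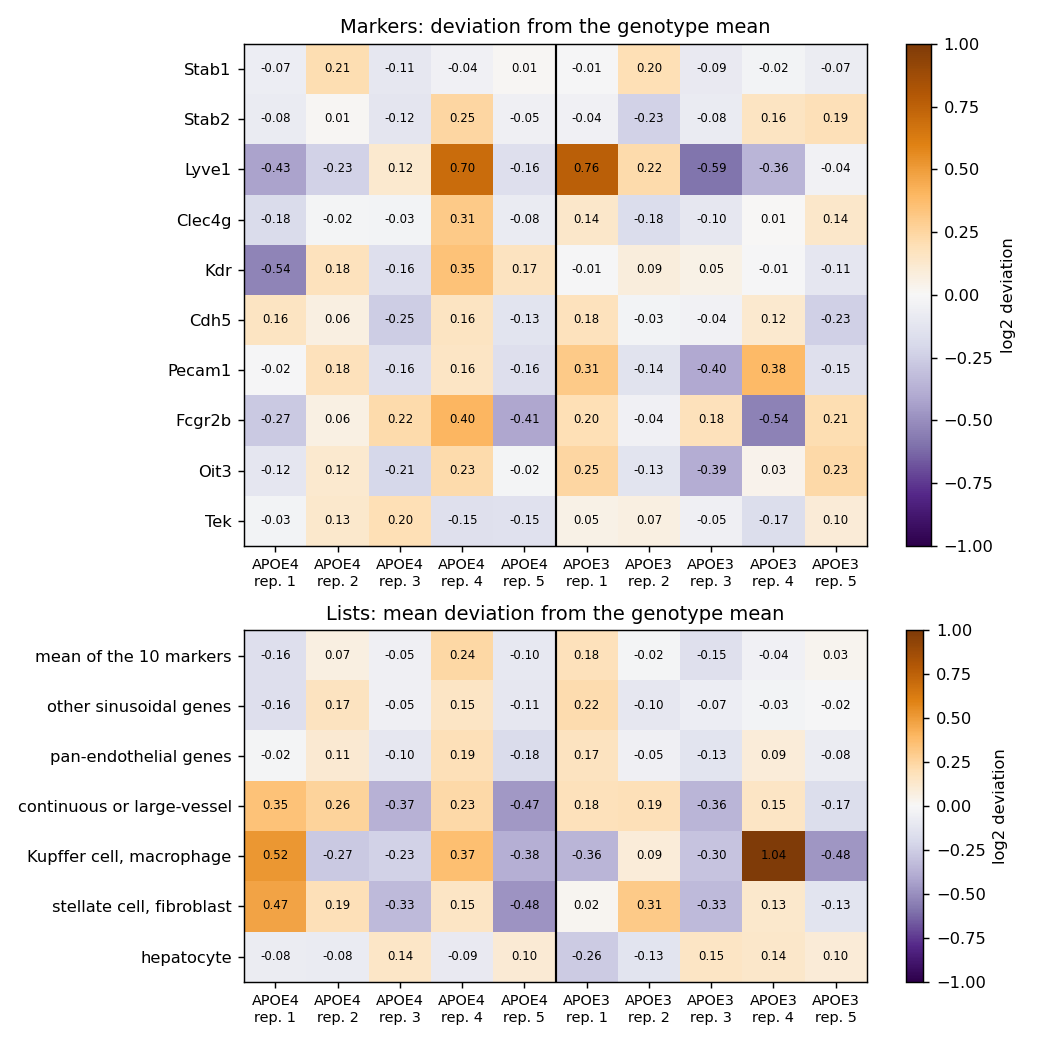
Deviation of each animal from its genotype mean (log2, colour and printed value) for the 10 markers (top) and averaged over the tested genes of 7 lists (bottom), with APOE4 livers left of the line and APOE3 livers right of it. APOE4 liver 4 and APOE3 liver 1 have the highest mean over the 10 markers (0.24 and 0.18), and APOE3 liver 4 stands apart in the Kupffer cell and macrophage list (1.04).

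Averaged over the 10 genes, the deviation was highest in APOE4 liver 4 (0.24), followed by APOE3 liver 1 (0.18), and lowest in APOE4 liver 1 (-0.16) and APOE3 liver 3 (-0.15). As deviations are taken from the mean of each genotype, both genotypes hold animals above and below their mean by construction. Lists of textbook genes were set beside the mean deviation of the members: other endothelial genes, ligands of vascular receptors, and markers of other liver cells. The mean deviation of 18 tested sinusoidal genes that are no members followed that of the members with r = 0.886 (rho = 0.867, and 0.784 without the 2 arrays farthest from the median). For 23 pan-endothelial genes r was 0.800 (rho = 0.733, and 0.521 without those arrays). For 9 ligands of vascular receptors r was 0.850 (rho = 0.855, and 0.783). For 13 hepatocyte genes it was -0.603 (rho = -0.673, and -0.248), so its size depends on those 2 arrays. For Kupffer cell and macrophage markers it was -0.0666 (rho = -0.115) and for 11 stellate cell and fibroblast genes 0.214 (rho = 0.212). For 5 continuous or large-vessel endothelial genes it was 0.43 (rho = 0.309, and 0.26 without those arrays). For 3 genes of the lymphatic list it was 0.702 (rho = 0.685, and 0.668). Of these, Prox1 and Reln are also made by hepatocytes and stellate cells. For 1 erythrocyte gene, Alas2, r was 0.538 (rho = 0.564, and 0.447). For the 2 tested genes of the lymphocyte list, the leukocyte gene Ptprc and Ms4a1, it was -0.19. The sinusoidal list shares Eng with the pan-endothelial list and Flt4 with the lymphatic list, and every list shares the arrays.

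**Figure D4:**
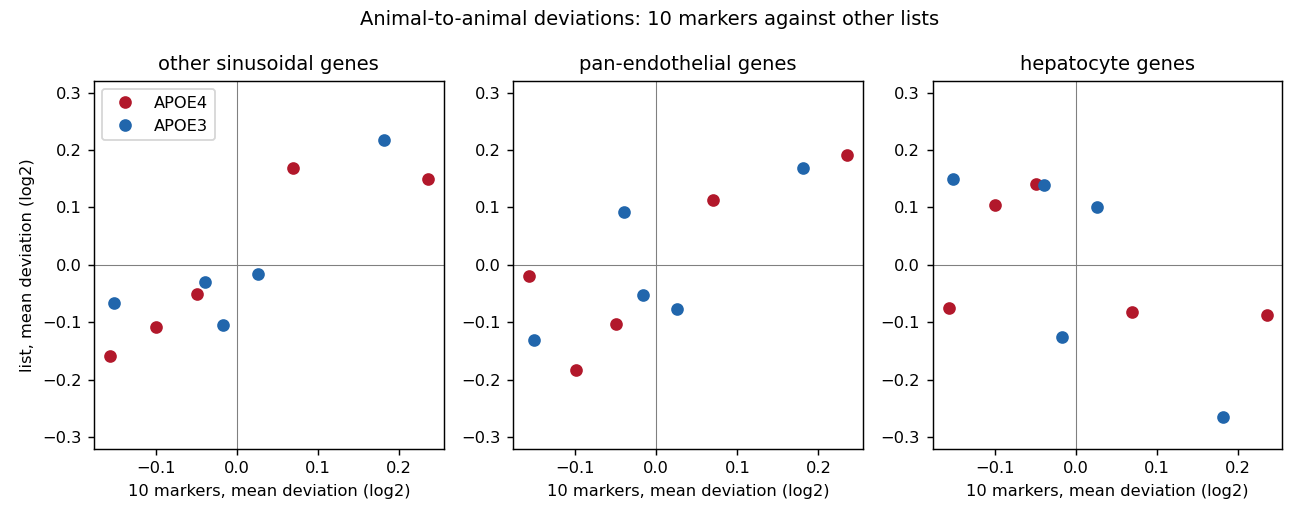
Mean deviation from the genotype mean over the 10 markers (horizontal axis, log2) against that of 18 other sinusoidal genes, 23 pan-endothelial genes and 13 hepatocyte genes (vertical axes, log2), 1 point per liver, APOE4 in red and APOE3 in blue. The points rise to the right in the first and second panels, with r = 0.886 and 0.800, and slope down in the third, where r = -0.603 and -0.248 without 2 arrays.

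The 5 probe sets whose deviations were most like the mean of the members, of 13338 ranked, were those of Tfpi (r = 0.942, rho = 0.952), Tmem11 (0.931, 0.927), Eif4a2 (0.930, 0.915), Isca1 (0.921, 0.915) and Cd59a (0.920, 0.939), over 10 arrays. They are the top of a long ranking, which makes high values likely. Tfpi, the gene of tissue factor pathway inhibitor, was at 4.72 ± 0.37 in APOE4 and 4.99 ± 0.28 in APOE3 livers (SD, n = 5 each; adjusted p = 0.730 in limma).

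Between the genotypes, the other endothelial genes gave no calls either. Of the 24 other sinusoidal genes, 18 were tested and 0 passed. Differences were above 0 in 10 and below in 8, beside 60.9% above 0 over all tested probe sets. Their median was 0.0077, against 0.05 over all tested probe sets. With arrays centred these medians were -0.05 and -0.0099. The smallest p in this list belonged to Dnase1l3, a secreted DNase gene, at 6.88 ± 0.13 in APOE4 and 6.47 ± 0.49 in APOE3 livers (SD, n = 5 each; adjusted p = 0.647 in limma). F8, which encodes coagulation factor VIII, was next at 5.89 ± 0.33 in APOE4 and 5.59 ± 0.31 in APOE3 livers (SD, n = 5 each; adjusted p = 0.703 in limma).

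Of 32 pan-endothelial genes, 23 were tested and 0 passed, with a median of 0.0037 (-0.05 with arrays centred). Differences were above 0 in 12 and below in 11, beside 60.9% above 0 over all tested probe sets. Adgrl4, an endothelial adhesion G protein-coupled receptor gene, was at 4.70 ± 0.20 in APOE4 and 5.15 ± 0.41 in APOE3 livers (SD, n = 5 each; unadjusted p = 0.0326, adjusted p = 0.588 in limma). Cldn5, a tight junction gene of endothelium, was at 5.53 ± 0.12 and 5.23 ± 0.34 in APOE4 and APOE3 livers (SD, n = 5 each; adjusted p = 0.664 in limma), a difference of 0.30 with the opposite sign to Cdh5, and Myct1 was at 4.31 in APOE4 and 4.62 in APOE3 livers. Genes of continuous or large-vessel endothelium were mostly near the floor. Of 13 on the array, 6 were under 4 on all arrays and 5 were tested. Differences ran from -0.31 for Vcam1 to 0.23 for Vwf. Vwf was under 4 in 2 APOE3 livers, so its difference has no sure scale. The 3 tested genes of lymphatic endothelium, Prox1, Flt4 and Reln, differed by -0.04, 0.07 and -0.0067, and Prox1 and Reln are also made by hepatocytes and stellate cells.

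Among ligands of vascular receptors, 9 of 15 on the array were tested and 0 passed, with a median of 0.01 (-0.04 with arrays centred). Vegfc, a ligand of the lymphatic receptor Flt4, was at 6.64 ± 0.17 in APOE4 and 6.87 ± 0.25 in APOE3 livers (SD, n = 5 each; adjusted p = 0.689 in limma), while Cxcl12 was at 10.67 in APOE4 and 10.54 in APOE3 livers and Angptl6 at 5.92 in APOE4 and 5.77 in APOE3 livers.

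Markers of the other liver cells were read on the same arrays, where 60.9% of all tested probe sets had a difference above 0. For Kupffer cells and macrophages, 15 of 18 differences were below 0 with a median of -0.21 (0.0071 without APOE3 liver 4), and 0 passed. The mean level of the list ran from 7.89 to 8.79 in APOE4 and from 8.07 to 9.58 in APOE3 livers. Marco, Hmox1 and Cd163 had the smallest p there, with differences of -1.90, -1.16 and 0.87 (adjusted p = 0.706, 0.637 and 0.634 in limma). APOE3 liver 4 was the extreme animal in each. It had the highest Marco (9.99) and Hmox1 (9.15) of all arrays, but the lowest Cd163 (6.37). Marco was under 4 in 4 APOE4 and 3 APOE3 livers, so its difference has no sure scale. For stellate cells and fibroblasts, 11 of 13 genes were tested, with a median of -0.07 (-0.27 without APOE4 liver 1 and 0.17 without APOE4 liver 3) and list levels of 7.42 to 8.38 in APOE4 and 7.56 to 8.20 in APOE3 livers. Lrat, Colec11 and Pdgfra had differences of 0.75, -0.29 and 0.29 (adjusted p = 0.452, 0.584 and 0.634 in limma). For hepatocytes, 11 of 13 tested genes were below 0 with a median of -0.13 (-0.01 without APOE3 liver 3). Oat, Hal and Cyp2e1 had the smallest p, with differences of -0.37, -0.36 and -0.13 (adjusted p = 0.583, 0.678 and 0.707 in limma), and list levels were 12.68 to 12.91 in APOE4 and 12.63 to 13.04 in APOE3 livers. Of 10 genes listed for lymphocytes and natural killer cells, 8 were under 4 on all arrays, and Ptprc (-0.41) and Ms4a1 (-0.02) were tested. Ptprc is made by leukocytes in general and was highest in APOE3 liver 4 (9.01). Ms4a1 was under 4 in 4 APOE4 and 3 APOE3 livers, so its difference has no sure scale. Of 6 platelet markers 5 were under 4 on all arrays and 0 were tested, and of 3 erythrocyte markers Alas2 (-0.19) was. In all 11 lists together, 101 of 151 genes on the array were tested and 0 passed in limma, with 1 higher and 3 lower at an unadjusted p under 0.05 (Lrat above, Adgrl4, Colec11 and Oat below), beside 8.00% of all tested probe sets in either direction and 2.46% lower.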

How the data were processed

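Liver RNA of 5 APOE4 and 5 APOE3 mice was labelled with biotin from 2 ug and measured on 1-colour arrays, 1 per animal. The authors deposited log2 values. Per the submitters' processing notes they used R 2.7.1 and GCRMA 2.12.1, which corrects background, normalizes between arrays and combines each probe set; any later filter is not given in the sources used here. Groups came from the sample titles, and 0 columns belonged to no sample. Of the probe sets, 34958 had a single symbol in the platform annotation.

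After 64 control probe sets were removed, the 14732 with a mean of at least 4 were compared with limma (version 3.58.1, R 4.3.3; two-sided, eBayes with its default settings and genotype as the only term). P-values were adjusted by Benjamini-Hochberg over all of them, with a threshold of 0.05. Intervals are limma's at 95%. Genes with several probe sets stand in lists by the brightest. Of 162 genes in 11 lists, 151 were on the array by name. The procedure was tested on simulated data. Named were all members, up to 3 genes per list with the smallest p, and the 5 probe sets most like the members. Vegfa, Angpt1 and Angpt2 lie outside this rule. The members and lists were chosen with earlier results of these data known. Alternatives were other filters, moderation, array weights, rescaling, a floor at 4, the replicate block and leaving out 1 animal at a time. Same-numbered animals were not treated as pairs in the main fit. Correlations of their deviations ran from -0.079 to 0.414 and 3 of 5 exceeded 0.1, which does not settle whether they are pairs. The replicate block, run as an alternative, treats them as such. No batch is given, so none was tested. The number of arrays limits the precision. Figures used Python 3.11.15 and matplotlib 3.10.9.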

Additional observations from a re-analysis of the deposited data

Results flagged for a closer look

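In the 5 animals of a genotype, a value was taken as standing apart when its gap to the nearest other value was over 0.71 of the range. Among 88 groups of 5 values, from 44 probe sets of members and named genes, 5 had such a value; chance gives about 1 in 20 groups. Stab1 was at 7.04 in APOE3 liver 2, against 6.75 to 6.82 in the other APOE3 livers. The low probe set of Lyve1 was at 3.91 in APOE4 liver 4, against 2.90 to 3.16 in the other APOE4 livers, and its tested probe set was also highest in that liver (7.28). Vcam1 was at 9.09 in APOE3 liver 2, against 7.79 to 8.15 in the other APOE3 livers. The B cell gene Ms4a1 was at 5.09 in APOE4 liver 1, against 3.60 to 3.79 in the other APOE4 livers. Hal was at 10.6 in APOE3 liver 1, against 11.24 to 11.41 in the other APOE3 livers.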

How the results depend on the processing

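No member probe set and no gene of the other lists passed in limma under any of the alternatives run. The count of calls over all probe sets was 12, 11 with the replicate block, and 8 to 14 without 1 animal. It was 15 with no filter, where more probe sets are tested, and 5 with a mean of at least 6, where fewer are. The replicate block gave 0 member calls; 2 of 5 numbers correlated best with their own. The median difference of the members was 0.08 with the block, 0.10 with array weights, 0.03 with renewed quantile normalization, 0.02 over all 13 tested probe sets and -0.0043 to 0.11 without 1 animal. Members whose groups do not overlap numbered 0 to 1 without 1 animal, and those among all tested probe sets 407 to 749, against 297 with every animal.

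Signs turned only in Stab2 and Fcgr2b. Fcgr2b 1451941_a_at and 1455332_x_at were at -0.0436 and -0.0289 with renewed quantile normalization. With arrays centred, 1435477_s_at, 1451941_a_at and 1455332_x_at were at -0.0016, -0.0457 and -0.0371. Without 1 animal Stab2 ran from -0.0892 to 0.0211, and the Fcgr2b probe sets 1435477_s_at from -0.0809 to 0.158, 1451941_a_at from -0.119 to 0.145, 1455332_x_at from -0.0673 to 0.151 and 1435476_a_at from -0.139 to 0.0735. The causes were not tested. Pecam1 and Fcgr2b 1435476_a_at, with lower means, could not be fitted with a mean of at least 6.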
